A study of Mus musculus with 6 samples.

Results

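Open chromatin was mapped by ATAC-seq at 41 imprinted gene loci in mesenchymal stem and progenitor cells sorted from the marrow of mice, and compared between mice given doxorubicin (DOX) and mice given phosphate-buffered saline (PBS). The rule used the names of genes known to be imprinted in mouse and their positions, and no measured value. All 41 genes were in the annotation, 39 protein-coding genes and 2 long non-coding RNA genes (H19 and Meg3) on 10 chromosomes, out of 21629 genes used as background. A peak belonged to a locus when its summit lay in the gene or within 20 kb of it. The 41 loci then held 193 of 78613 open regions, of which 20 lay in the windows of 2 or more members.

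The DOX group carried Lepr-Cre;LSL-tdTomato+/-, was female, was 8 to 10 weeks old at treatment and received 4 intravenous doses of doxorubicin at 5 mg/kg, with 1 week between doses. The PBS group carried the same alleles, had the same sex and age and received PBS on the same schedule. Marrow was taken 8 weeks after treatment. Lepr-Cre switches on the red reporter tdTomato in cells that express the leptin receptor and in their progeny, and the sort collected red cells, so the gate also keeps descendants that have lost the receptor. Each group held 3 libraries, called biological replicates in the titles. How many mice went into each library is not stated in the labels; p-values therefore cover only the spread among libraries, which may be technical. In ATAC-seq the transposase Tn5 cuts accessible DNA, and a peak marks a stretch where cuts pile up.

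Imprinted genes are expressed mainly from the maternal or mainly from the paternal copy. The choice is written in the germ line as DNA methylation at control regions and is read by neighbouring genes, often through a non-coding RNA or an insulator. At Igf2 and H19 the insulator protein CTCF binds the unmethylated maternal control region, while at Kcnq1 and Igf2r the promoters of the non-coding RNAs Kcnq1ot1 and Airn sit inside the gene and silence its neighbours on the paternal copy. Many imprinted genes act on growth and on stem cell quiescence, such as the growth factor Igf2, the cell cycle inhibitor Cdkn1c and the preadipocyte factor Dlk1. The peak lists do not separate the parental copies, so a peak can stem from either or both.

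On the autosomes and X the authors had called 91026, 91060 and 100642 peaks in DOX, against 88348, 89264 and 65462 in PBS. The background that the peak caller had used was 1.72, 1.67 and 2.22 fragments per position in DOX and 1.27, 1.10 and 0.558 in PBS. Every DOX library was thus deeper than every PBS library, and PBS replicate 3 stood apart as the shallowest. Depth and treatment cannot be told apart in this design. The 65462 strongest peaks of each library were therefore compared, the length of the shortest list, and strength was read as rank within a list. The ends of these lists still differ. The lowest pileup kept was 20, 21 and 28 fragments in DOX and 16, 14 and 5 in PBS. Ranks near the end of the PBS replicate 3 list thus rest on few fragments. All 10 markers of LepR-lineage stroma, Lepr and Cxcl12 among them, had a peak at their start in every library. Such a peak was seen in 2 of 8 B cell markers in every DOX and PBS library, in 1 to 2 of 9 myeloid markers in DOX and 2 in PBS, in 3 of 7 erythroid markers in DOX and 2 to 3 in PBS, in 2 of 6 T cell markers and in 1 of 7 endothelial markers. The B cell gene Cd79a, the myeloid gene Mpo and the endothelial gene Cdh5 had none in any library.

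Promoter sequences are shown for 8 starts on which the description below turns: 2 starts of non-coding RNAs inside members, 3 members with a peak within 1 kb of their start in every library and 3 members without one in any of the equal-length lists. Each is the RefSeq sequence of build GRCm38.p6 from 250 bases before to 50 bases after the start, read 5′ to 3′ on the strand of the gene. CpG dinucleotides, the sites of DNA methylation, are in capitals. The windows are chr7:143296498-143296797 (minus strand) for Kcnq1ot1, chr17:12741061-12741360 (plus) for Airn, chr6:30737800-30738099 (plus) for Mest and chr7:6730370-6730669 (minus) for Peg3. They are chr10:13090582-13090881 (plus) for Plagl1, chr2:157559828-157560127 (plus) for Nnat, chr1:63273019-63273318 (plus) for Zdbf2 and chr7:60005150-60005449 (minus) for Snrpn.
Kcnq1ot1: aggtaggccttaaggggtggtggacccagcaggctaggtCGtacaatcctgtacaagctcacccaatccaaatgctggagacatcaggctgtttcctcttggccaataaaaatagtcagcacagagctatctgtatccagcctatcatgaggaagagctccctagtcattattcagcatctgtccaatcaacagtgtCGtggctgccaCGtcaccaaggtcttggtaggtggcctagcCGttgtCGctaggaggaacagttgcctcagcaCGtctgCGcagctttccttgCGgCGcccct
Airn: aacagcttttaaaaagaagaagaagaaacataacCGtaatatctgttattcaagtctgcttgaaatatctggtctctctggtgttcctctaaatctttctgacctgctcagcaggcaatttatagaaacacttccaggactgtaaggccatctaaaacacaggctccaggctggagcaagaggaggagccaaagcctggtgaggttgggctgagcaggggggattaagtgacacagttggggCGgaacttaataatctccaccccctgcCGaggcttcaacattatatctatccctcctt
Mest: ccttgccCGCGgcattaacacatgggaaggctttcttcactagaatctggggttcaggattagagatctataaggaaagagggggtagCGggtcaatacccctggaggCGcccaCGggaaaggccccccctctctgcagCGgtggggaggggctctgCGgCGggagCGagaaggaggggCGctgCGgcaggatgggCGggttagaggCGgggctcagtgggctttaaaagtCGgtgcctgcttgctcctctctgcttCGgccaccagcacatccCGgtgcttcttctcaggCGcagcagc
Peg3: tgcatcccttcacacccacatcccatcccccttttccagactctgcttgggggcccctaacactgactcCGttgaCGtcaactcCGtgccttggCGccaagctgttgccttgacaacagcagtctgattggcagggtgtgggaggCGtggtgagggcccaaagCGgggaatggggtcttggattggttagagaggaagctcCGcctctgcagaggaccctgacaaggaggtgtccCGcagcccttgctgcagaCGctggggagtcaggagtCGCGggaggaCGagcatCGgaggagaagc
Plagl1: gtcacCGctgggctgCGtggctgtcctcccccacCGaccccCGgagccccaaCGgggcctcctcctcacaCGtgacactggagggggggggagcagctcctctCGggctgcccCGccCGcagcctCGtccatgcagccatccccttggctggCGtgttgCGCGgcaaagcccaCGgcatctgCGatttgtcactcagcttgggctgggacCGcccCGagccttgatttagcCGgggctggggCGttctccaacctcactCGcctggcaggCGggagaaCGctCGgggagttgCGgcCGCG
Nnat: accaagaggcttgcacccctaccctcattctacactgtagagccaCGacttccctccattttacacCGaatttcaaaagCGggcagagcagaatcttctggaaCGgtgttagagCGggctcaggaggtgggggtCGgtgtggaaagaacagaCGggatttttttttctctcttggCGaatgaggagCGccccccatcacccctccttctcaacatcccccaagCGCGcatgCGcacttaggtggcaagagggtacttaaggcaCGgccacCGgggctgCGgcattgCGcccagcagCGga
Zdbf2: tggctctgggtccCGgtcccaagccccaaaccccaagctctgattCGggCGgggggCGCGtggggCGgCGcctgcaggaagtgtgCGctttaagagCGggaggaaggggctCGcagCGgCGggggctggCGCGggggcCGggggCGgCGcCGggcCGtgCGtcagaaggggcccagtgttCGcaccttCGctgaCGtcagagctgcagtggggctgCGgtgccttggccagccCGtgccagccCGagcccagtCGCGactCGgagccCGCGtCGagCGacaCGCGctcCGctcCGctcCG
Snrpn: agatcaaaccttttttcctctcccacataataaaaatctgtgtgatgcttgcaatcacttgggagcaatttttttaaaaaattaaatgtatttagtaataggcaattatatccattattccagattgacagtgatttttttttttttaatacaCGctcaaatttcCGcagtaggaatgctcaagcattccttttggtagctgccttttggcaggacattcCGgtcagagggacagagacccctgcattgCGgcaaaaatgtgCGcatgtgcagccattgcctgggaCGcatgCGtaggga

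Most imprinted genes had an open start, in the same genes after DOX and after PBS. A start counted as open when a peak overlapped the 1 kb on either side of an annotated start; for the 8 members without an annotated start in the table (H19, Cdkn1c, Kcnq1, Rtl1, Peg10, Sgce, Impact and Dcn) either end of the gene was used. Ranks at a start are those of the strongest peak within this distance, which need not cover the start itself. Of the 41 members, 27, 27 and 27 were open in the DOX libraries and 26, 27 and 26 in the PBS libraries. Over all 21629 genes the open share was 60.1%, 60.2% and 60.4% in DOX and 59.8%, 59.7% and 59.4% in PBS. In all 6 libraries 26 members (63.4%) were open, against 57.8% of all genes, and 14 were open in none, against 38% of all genes. A gene counts as open if any of its starts is. Counted by annotated start, 52% of the 50 member starts were open in all 6 libraries, against 57.1% of 21046 protein-coding starts. By the same count 46% were open in none, against 38.7%. Starts open in every DOX library but absent from PBS, a pattern of 0.12% of all genes, were seen in 0 members, as was the opposite pattern (0.0185%). The remaining member was Ascl2, a transcription factor of the trophoblast and of stem cells, which had a start peak in DOX replicates 1, 2 and 3 and in PBS replicate 2. The region that holds this peak (chr7:142967432-142968452) was present in all 6 libraries, and in PBS replicates 1 and 3 its peak did not come within 1 kb of the start.

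**Figure D1:**
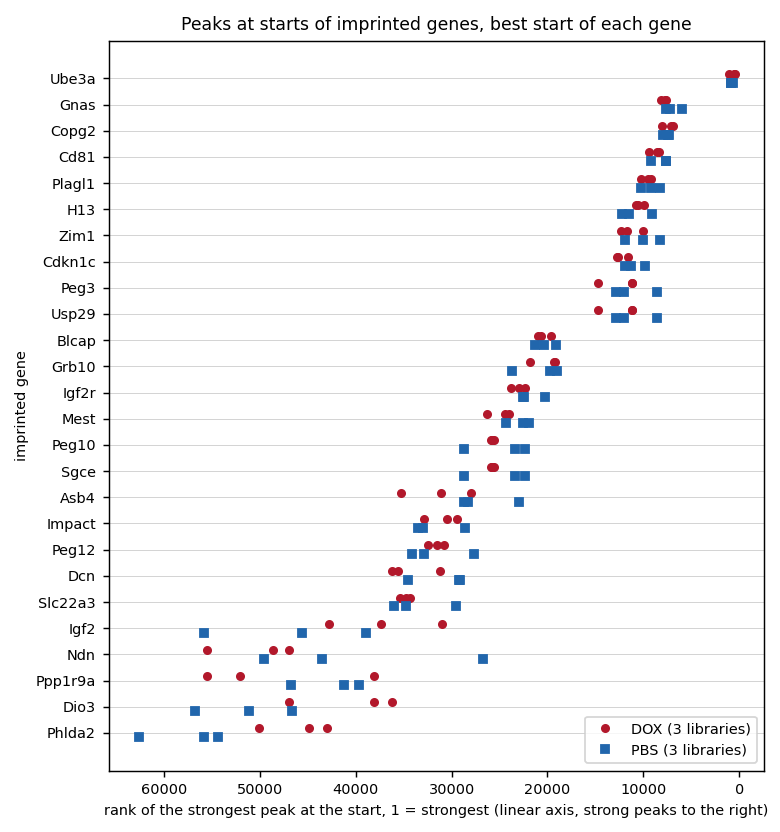
Rank of the strongest peak within 1 kb of the start, on the horizontal axis with 1 as the strongest of 65462, for the 26 imprinted genes open in all 6 libraries; red circles are the 3 DOX libraries and blue squares the 3 PBS libraries. Ube3a is the strongest in every library, and at Phlda2 every DOX library is ahead of every PBS library.

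The strongest start peak belonged to Ube3a, a ubiquitin ligase that is imprinted in neurons. It ranked 487, 1036 and 531 in DOX and 889, 835 and 673 in PBS, with a fold enrichment over background, as given by the authors' peak caller, of 190, 193 and 228 in DOX and 166, 176 and 125 in PBS. The groups overlapped in rank. Next by the mean of the 6 ranks came a start of Gnas, which encodes the stimulatory G protein alpha subunit of hormone receptors, at ranks 7602, 8196 and 7716 in DOX and 7673, 5997 and 7241 in PBS. The groups overlapped here too. Close to it, and ahead of it in 3 of the 6 libraries, Copg2, a coat protein gene of the Golgi, ranked 6877, 7082 and 8091 in DOX and 7344, 7979 and 7398 in PBS. Cd81, a tetraspanin, ranked 8359, 8589 and 9420 in DOX and 9195, 7692 and 7680 in PBS. Plagl1, a zinc finger gene that represses growth, ranked 9245, 9500 and 10200 in DOX and 10279, 9226 and 8273 in PBS. The libraries of the groups overlapped in each of these genes.

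By mean rank, start peaks were weakest at Phlda2, Dio3, Ppp1r9a, Ndn and Igf2. Phlda2, a growth-limiting gene of the placenta, ranked 42998, 44891 and 50034 in DOX and 62643, 54334 and 55852 in PBS, so that every DOX library had the stronger peak. The rank test described below gave its region (chr7:143501676-143502934) a score difference of 0.89 ± 0.38 (SE) and an adjusted p of 0.333 (limma). Ndn, which encodes the growth suppressor necdin, ranked 46995, 55470 and 48670 in DOX and 43465, 49584 and 26706 in PBS. The value of PBS replicate 3 lay apart from the other 5. Igf2 had its open start at 142658804 on chromosome 7, and the strongest peak within 1 kb of it had ranks of 37335, 42753 and 31048 in DOX and 38946, 45622 and 55852 in PBS, while the peak over the start itself (chr7:142658674-142659030) ranked 56823, 49056 and 43906 in DOX and 50531, 54334 and 55852 in PBS. The groups overlapped in both, and the 3 other annotated Igf2 starts had no peak in any library.

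The 14 members without a start peak in any equal-length list were H19, Kcnq1, Tspan32, Dlk1, Meg3, Rtl1, Calcr, Slc22a2, Nnat, Snrpn, Magel2, Mkrn3, Rasgrf1 and Zdbf2. Of these, 9 had none in the full deposited lists either. The others were Nnat and Rasgrf1, with a weak start peak in all 3 DOX libraries and in PBS replicates 1 and 2, Mkrn3 in DOX replicates 2 and 3 and PBS replicate 2, Slc22a2 in DOX replicates 2 and 3, and H19 in DOX replicate 3. A missing peak says that a start lay below the threshold of a library, and not that it was closed.

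CpG content is given as a description of the starts. The 33 members with annotated starts had 50 of them. Starts with a peak in all 6 libraries held a median of 22 CpGs in 300 bases for the 26 starts of imprinted genes and 22 for all 12026 such protein-coding starts. Starts without a peak in any library held a median of 9 for the 23 starts of imprinted genes and 3 for all 8153. A start of Zdbf2, printed above, had 38 CpGs and no peak in the equal-length lists. Calcr (29), Rasgrf1 (26) and Nnat (17) also had CpG-rich starts without a peak in these lists. Conversely Slc22a3 was open with 5 CpGs and the Airn start with 3. The hexamer TGCCGC, which the imprint-keeping factor ZFP57 recognises when methylated, was searched on both strands. It was in 13 of the 50 windows of imprinted genes (26%) and in 14.3% of the 21046 protein-coding windows. At starts with a peak in all 6 libraries the shares were 23.1% in imprinted genes (6 of 26) and 20.6% in all. At starts without a peak they were 30.4% in imprinted genes (7 of 23) and 5.02% in all. The hexamer itself holds a CpG, and these shares were not adjusted for the CpG content given above. Windows of a gene can overlap almost wholly, as those of 2 Mest starts do, so they are not independent. The printed Mest window held 2 copies.

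**Figure D2:**
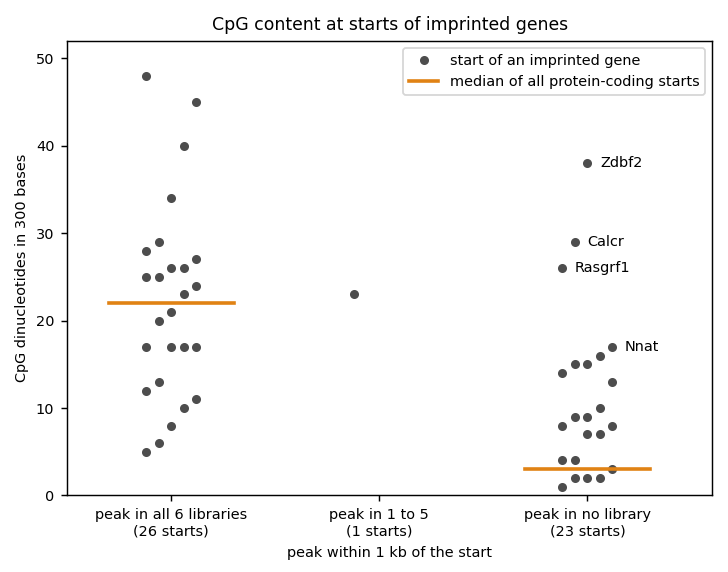
CpG dinucleotides in the 300 bases around each annotated start of an imprinted gene (points, 50 starts), by the number of libraries with a peak within 1 kb. The orange lines are the medians over all protein-coding starts, 22 with a peak in all 6 libraries and 3 with none. The labelled starts of Zdbf2, Calcr, Rasgrf1 and Nnat have many CpGs and no peak in the equal-length lists.

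Strong peaks lay inside Kcnq1 and Igf2r at the starts of their antisense RNAs. Kcnq1, a potassium channel gene, had no peak at either gene end, yet its window held 18, 16 and 16 peaks in DOX and 18, 14 and 17 in PBS. The region at chr7:143295477-143296954, with its summit 79 bp from the start of Kcnq1ot1, ranked 6664, 5669 and 7554 in DOX and 6530, 6222 and 5086 in PBS. In Igf2r, which encodes the receptor that clears IGF2, the region at chr17:12740984-12742787 had its summit 9 bp from the start of Airn. It ranked 10607, 10263 and 9360 in DOX and 9430, 9769 and 10469 in PBS, ahead of the peak at the start of Igf2r itself, which ranked 22337, 23826 and 22932 in DOX and 22411, 22521 and 20252 in PBS. In H13, a signal peptide peptidase gene, a region 203 bp from the start of the intronic gene Mcts2 ranked 7974, 6767 and 7249 in DOX and 7269, 6537 and 6534 in PBS. All of these regions were open in all 6 libraries and the groups overlapped in each. The windows printed for Kcnq1ot1 and Airn held 9 and 3 CpGs.

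Elsewhere in Kcnq1, PBS replicate 3 stood apart. The region at chr7:143367668-143368546 ranked 21808, 23076 and 21818 in DOX and 15523, 14129 and 2650 in PBS. Every DOX library lay below every PBS library, and the adjusted p was 0.447 (limma).

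At H19 and Igf2 on chromosome 7, a nearly empty locus lay beside one with several peaks. H19, a long non-coding RNA gene that is silenced in most tissues after birth, had 1, 0 and 0 peaks in its window in DOX and 0, 0 and 0 in PBS. Igf2 had 4, 6 and 6 in DOX and 4, 5 and 3 in PBS. The groups overlapped in both genes. The strongest region near Igf2 lay 3944 bp outside the gene (chr7:142646514-142647262) and ranked 11305, 12289 and 12316 in DOX and 14187, 10905 and 13477 in PBS. Cdkn1c, the cell cycle inhibitor p57 that keeps stem cells quiescent, had 9, 10 and 8 peaks in DOX and 10, 8 and 9 in PBS. The region over the higher-coordinate end of its span (chr7:143458974-143461613) ranked 12792, 12691 and 11633 in DOX and 11336, 11951 and 9879 in PBS. No strand was given for Cdkn1c, so this end may be its start. The groups overlapped at Igf2 and at Cdkn1c in peak number and in these ranks.

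In the Dlk1 to Dio3 cluster on chromosome 12, Dlk1, Meg3 and Rtl1 had no start peak, and the peaks near Dlk1 and Meg3 lay outside these genes. Dlk1, a Notch-like surface protein that holds back adipocyte formation, had 2, 2 and 2 peaks in DOX and 2, 2 and 1 in PBS, none at its start. Meg3, a long non-coding RNA gene of the maternal copy, had 3, 3 and 3 in DOX and 3, 3 and 2 in PBS. Its strongest region lay 11715 bp before its start, on the Dlk1 side (chr12:109528979-109529811), at ranks 14101, 13665 and 12670 in DOX and 12631, 12753 and 10277 in PBS. The stretch between Dlk1 and Meg3 is known to hold the control region of the cluster; whether these peaks coincide with it was not analysed here. The groups overlapped in these counts and ranks. Rtl1, a retrotransposon-derived gene, had 1 peak in each DOX and each PBS library, inside the gene.

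The Prader-Willi and Angelman cluster on chromosome 7 held few peaks beyond Ube3a. Snrpn, a splicing protein gene whose first exon region controls the cluster, spans 467683 bp in the annotation and had 0, 0 and 1 peaks in DOX and 0, 0 and 0 in PBS. Ndn and Peg12 had 1 peak in each DOX and each PBS library, at their starts. Magel2 and Mkrn3, a MAGE family gene and a ring finger gene, shared a single weak region between them (chr7:62400219-62400453), held by all 6 libraries at ranks 41576, 45661 and 48670 in DOX and 38946, 48152 and 37852 in PBS. In the proximal cluster of the same chromosome, the zinc finger gene Peg3 and Usp29, which start close together on opposite strands, had a weak peak over their starts (chr7:6730090-6730631), at ranks 55491, 53122 and 53051 in DOX and 44541, 58038 and 59457 in PBS. The strongest peak within 1 kb of the starts ranked 11229, 11227 and 14749 in DOX and 12880, 12063 and 8618 in PBS, and the groups overlapped at both. The region that holds the second of these (chr7:6727321-6729930) ends short of the Peg3 start and stood at percentiles of 77.2, 77.2 and 76.6 among shared regions in DOX and 81.7, 81.2 and 82.5 in PBS, where 100 is the strongest. Its strongest peak was weaker in every DOX library, with an adjusted p of 0.271 (limma). Zim1, another zinc finger gene, had 1 peak in each DOX and each PBS library, at its start.

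Single genes elsewhere ranged from none to many peaks in the equal-length lists. Rasgrf1, a Ras activator imprinted in brain, had 0 peaks in every DOX and PBS library there. In the full deposited lists it had 1, 1 and 1 in DOX and 2, 4 and 0 in PBS. Calcr, the calcitonin receptor gene, had 0, 0 and 0 in DOX and 1, 0 and 0 in PBS. Zdbf2 had a single region, 19112 bp outside the gene (chr1:63180958-63181430), at ranks 13267, 12616 and 12868 in DOX and 11038, 10321 and 9181 in PBS; every DOX library was weaker there, with an adjusted p of 0.256 (limma). Nnat, a small membrane protein gene inside an intron of Blcap, had no start peak but a region 1302 bp away (chr2:157561141-157561657) at ranks 13517, 13243 and 13177 in DOX and 12757, 14820 and 14003 in PBS. Mest, a hydrolase-like gene of mesoderm, had a peak over the CpG-rich window printed above (chr6:30737762-30738432), at ranks 40300, 34330 and 40058 in DOX and 53530, 36148 and 37852 in PBS, and the groups overlapped. The stronger peak beside it (chr6:30736839-30737601) ranked 26314, 24003 and 24387 in DOX and 21944, 22521 and 24345 in PBS. There the groups overlapped in rank within the lists, but as percentiles among shared regions every DOX library was below every PBS library, at 46.8, 51.3 and 50.6 in DOX and 56.0, 54.4 and 51.6 in PBS (limma, adjusted p = 0.670). The upstream Mest start at 30733506 had no peak. Grb10, an adaptor that dampens insulin signalling, ranked 21808, 19282 and 19264 at its start in DOX and 19723, 18968 and 23670 in PBS. Dcn, the matrix proteoglycan decorin, ranked 31195, 35615 and 36241 in DOX and 29085, 29196 and 34505 in PBS at the lower-coordinate end of its span. No strand was given for Dcn, so this end may be its start. The groups overlapped at Nnat, Grb10 and Dcn.

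Some of the strongest peaks in the windows belonged to neighbours or to stretches outside the member. The best region in the window of Cd81 (chr7:143068375-143070373) lay 306 bp from the start of Tssc4 and ranked 773, 955 and 1051 in DOX and 928, 718 and 812 in PBS. That of Asb4 (chr6:5447612-5449083) lay 15598 bp outside the gene and ranked 4173, 4279 and 3673 in DOX and 4347, 5176 and 4270 in PBS. The groups overlapped at both. That of Impact lay 12824 bp outside the gene and ranked 6242, 7027 and 6088 in DOX and 6203, 7195 and 6408 in PBS. In H13 the best rank was 2528, 3327 and 2634 in DOX and 3010, 2035 and 1911 in PBS, from regions inside the gene, and the groups overlapped in both genes.

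**Figure D3:**
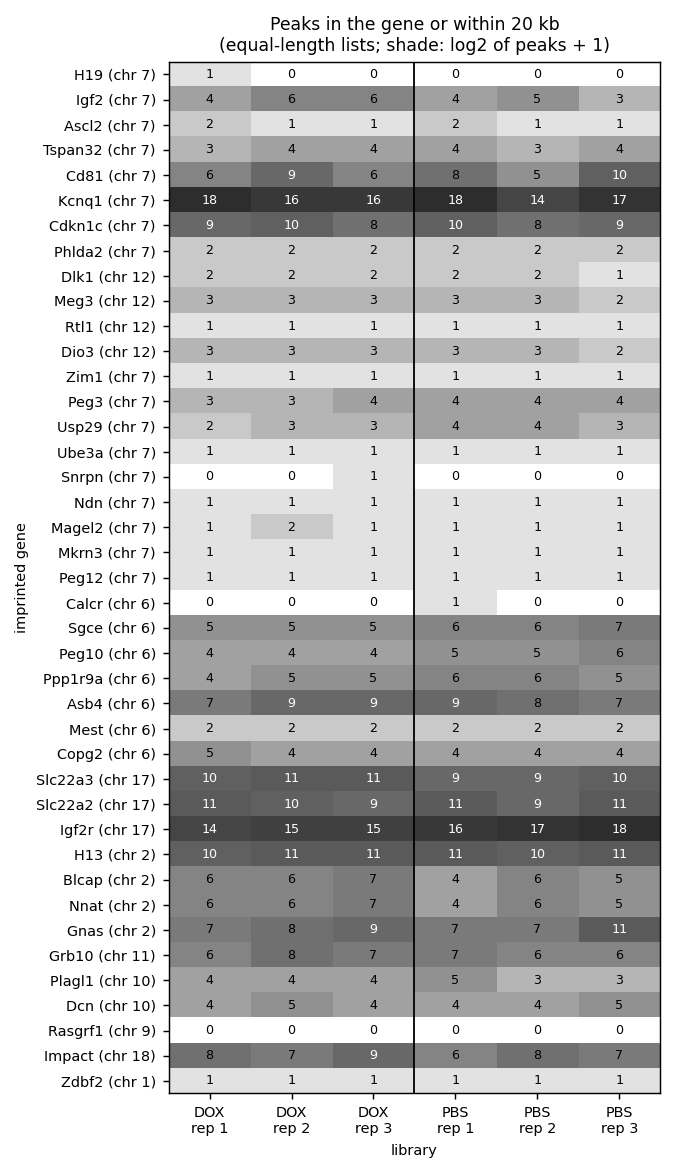
Number of peaks of the equal-length lists in each gene or within 20 kb of it, for the 41 imprinted genes (rows, with their chromosome) in 3 DOX libraries (left) and 3 PBS libraries (right); darker cells hold more peaks. Kcnq1 and Igf2r hold the most and Rasgrf1 has 0 in all 6 libraries, and only Sgce, Peg10 and Igf2r have all DOX counts below all PBS counts.

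Peak numbers separated DOX from PBS in 3 of the 41 members, all with fewer peaks after DOX. All DOX libraries lay below all PBS libraries in 3 members (7.32%), against 2.06% of 17094 genes with a peak, and all DOX libraries lay above all PBS libraries in 0 members, against 2.23% of these genes. The 41 members include 1 without a peak in the equal-length lists, Rasgrf1, while the share over all genes leaves such genes out. Peg10 and Sgce share peaks in their windows, so they are not separate cases, and 10 members had the same number in all 6 libraries. Peg10, a retrotransposon-derived placental gene, had 4, 4 and 4 peaks in DOX and 5, 5 and 6 in PBS. Sgce, a sarcoglycan gene that starts next to it, had 5, 5 and 5 in DOX and 6, 6 and 7 in PBS. Igf2r had 14, 15 and 15 in DOX and 16, 17 and 18 in PBS. With 3 libraries against 3, the smallest two-sided exact permutation p is 0.10, so no test was made. With regions counted in place of peaks, 0 members had DOX below PBS or above it. In the full deposited lists, which are longer for DOX, the mean difference at Igf2r turned from -2.33 to 1.33 peaks, Peg10 alone had all DOX counts below all PBS counts, and 5 members had them above. Of the 5 above, Mest and Copg2 share peaks in their windows. Without PBS replicate 3, 5 members had all DOX counts below. The share of all genes was not computed under these other settings, so these counts have no background.

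At Peg10 and Sgce, peaks were divided differently in the groups. Over the facing ends of the genes, at chr6:4746579-4748504, each DOX library had a single peak, 1903, 1727 and 1742 bp wide. Each PBS library had 2 peaks there. The first was 932, 1002 and 907 bp wide and the second 510, 578 and 294 bp wide, with the summits of the second 911 to 963 bp inside the Peg10 span. PBS replicate 3 also had a weak peak of its own in a separate region (chr6:4746178-4746309, rank 59457). In Igf2r the region at chr17:12724301-12726294 likewise held 2, 1 and 2 peaks in DOX and 3, 3 and 3 in PBS. Depth moved with this difference, since all DOX libraries were deeper, and its part in the result was not tested. By rank the strongest peak of the Peg10 and Sgce region stood at 25550, 25903 and 25810 in DOX and 28693, 23435 and 22395 in PBS, with the groups overlapping.

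**Figure D4:**
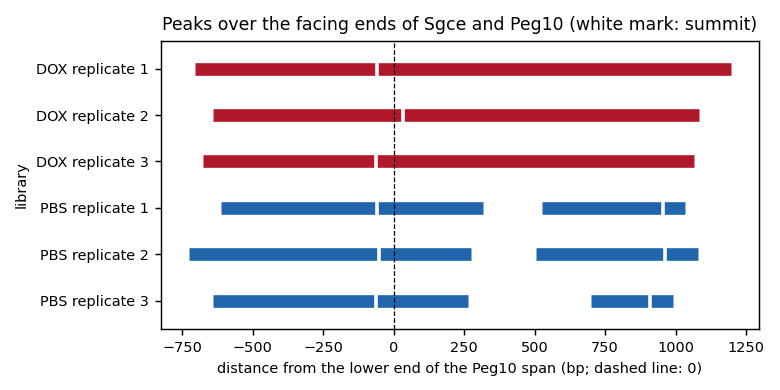
Extent of each peak over the facing ends of Sgce and Peg10, as distance in bp from the lower end of the Peg10 span, for 3 DOX libraries (red, top) and 3 PBS libraries (blue, bottom); white marks are summits. Each DOX library has a single peak of 1727 to 1903 bp where each PBS library has 2 shorter peaks.

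Regions present after only 1 treatment were not found at imprinted loci. Of the 193 regions, 0 were held by the 3 DOX libraries alone, against 0.792% of all regions, and 0 had the opposite pattern, against 0.303%. At these shares a set of 193 would hold few, so the counts of 0 carry little weight. All 6 libraries shared 123 of the 193 regions (63.7%), against 62.5% of all regions. Of the 123 shared regions 23 had their summit at an annotated start, 3 at a gene end, 59 elsewhere inside a member and 38 outside. Single libraries held 26 of the 193. The full deposited lists, which are longer for DOX, gave 7 of 270 regions for DOX and 0 for PBS. Over all regions these lists gave 2151 for DOX and 43 for PBS, of 113038. Regions built from summits gave 0 of 219 for DOX and 2 for PBS, against 698 and 578 of 88181 over all regions. Both of these PBS regions overlapped a wider peak in every DOX library.

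The strength of shared regions did not pass the test at any imprinted locus. For each library the 49098 regions shared by all 6 libraries were ranked by their strongest peak, the rank was turned into a normal score (a region 1 SD above the middle has a score of 1), and DOX and PBS were compared with limma over all regions. At an adjusted p of 0.05, 0 of the 123 regions of imprinted loci and 0 of the 49098 regions (0%) were called. At an unadjusted p under 0.05, limma had 11 of the 123 higher in DOX and 4 lower, against 7.01% and 6.1% of all regions. The median score difference was 0.0020 over the 123 regions and -0.00018 over all. All DOX libraries lay above all PBS libraries in 10 of the 123 regions (8.13%, against 9.37% of all regions) and below in 10 (8.13%, against 9.41%). Those above lay at Meg3, Dio3, Igf2r, Nnat and Blcap, Cdkn1c and Phlda2, with 2 each at Slc22a2 and Kcnq1. Those below lay at Zdbf2, Plagl1, Dcn, Impact, Gnas, Ppp1r9a, Asb4, Mest and Copg2, Peg3 and Usp29, and Kcnq1. A p that misses the threshold does not show that values were equal.

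The 5 regions with the lowest p at imprinted loci lay near Dio3 and Blcap and inside Igf2r, Slc22a2 and Ppp1r9a. They are given as percentiles among shared regions, where 100 is the strongest. The region 15903 bp before Dio3, the enzyme that inactivates thyroid hormone, stood at 67.0, 67.8 and 65.2 in DOX and 49.3, 53.2 and 46.9 in PBS (chr12:110262905-110263960). Every DOX library was above every PBS library, with a score difference of 0.44 ± 0.09 (SE) and an adjusted p of 0.098 (limma). The peak over the Dio3 start (chr12:110278850-110279331) ranked 51970, 38041 and 36241 in DOX and 58505 and 51112 in PBS replicates 1 and 2, and was not in the list of PBS replicate 3. The groups overlapped there.

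Inside Igf2r, 2978 bp from the Airn start, a region (chr17:12744073-12744708) stood at 55.9, 57.3 and 48.7 in DOX and 45.0, 29.0 and 37.0 in PBS, a score difference of 0.44 ± 0.13 (SE; limma, adjusted p = 0.184). Inside Slc22a2, an organic cation transporter gene, a region (chr17:12606665-12607585) stood at 38.5, 47.9 and 59.4 in DOX and 24.8, 37.3 and 28.9 in PBS, a difference of 0.49 ± 0.16 (SE; limma, adjusted p = 0.212). In both regions every DOX library was above every PBS library. The region 3677 bp from Blcap (chr2:157552391-157552869) stood at 56.5, 59.0 and 45.7 in DOX and 46.5, 39.2 and 25.8 in PBS, where DOX replicate 3 fell below PBS replicate 1 (0.43 ± 0.15, SE; limma, adjusted p = 0.226). Without PBS replicate 3 its difference was 0.26. Inside Ppp1r9a, the gene of the actin-binding protein neurabin, a region (chr6:5110353-5110812) was weaker in every DOX library, at 61.2, 60.9 and 57.6 in DOX and 67.6, 67.3 and 70.2 in PBS (-0.23 ± 0.08, SE; limma, adjusted p = 0.231).

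**Figure D5:**
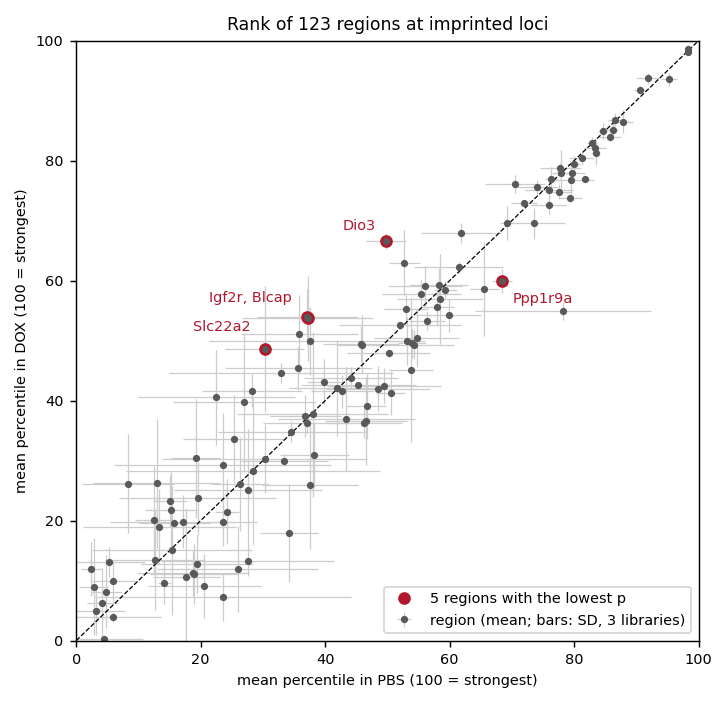
Mean percentile of each of the 123 shared regions at imprinted loci in DOX (vertical) and PBS (horizontal), with 100 as the strongest; bars are the SD of 3 libraries and the dashed line marks equal values. Red points are the 5 regions with the lowest p; those of Igf2r and Blcap coincide, 4 of the 5 lie above the line and Ppp1r9a lies below it, and none passed an adjusted p of 0.05.

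The imprinting machinery had open starts at the same genes in all 6 libraries. Of 25 genes that set or keep imprints, 22 had an open start in every DOX and PBS library, against 57.8% of all genes. Among them were the maintenance methyltransferase gene Dnmt1, the insulator gene Ctcf and the imprint-keeping genes Zfp57 and Trim28. The germ cell genes Dnmt3l and Dppa3 had no open start in any library, nor had Rad21 by its gene ends. Peak numbers had all DOX libraries above all PBS libraries at 1 of these genes, against 2.23% of all genes with a peak, and below at 2, against 2.06%. The histone methyltransferase gene Ehmt1 had 3, 3 and 4 peaks in DOX and 2, 2 and 2 in PBS and a region held only by the DOX libraries (chr2:24899416-24899722). That was 1 of the 110 regions of imprint regulators, against 0.792% of all regions. The PBS libraries alone held 0 of the 110, against 0.303% of all regions. Ctcf had 4, 4 and 4 peaks in DOX and 5, 5 and 5 in PBS, and the demethylase gene Kdm1b 2, 2 and 2 in DOX and 3, 4 and 3 in PBS. Of 43 other imprinted genes that matched the annotation, 29, 30 and 28 had an open start in DOX and 28, 28 and 28 in PBS. Of the 43, 25 were open in all 6 libraries and 13 in none, against 57.8% and 38% of all genes. Smoc1 had 19, 19 and 19 peaks in DOX and 18, 15 and 14 in PBS, and Jade1 had 6, 6 and 6 in DOX and 7, 7 and 7 in PBS. These were the only genes of that list whose peak counts did not overlap. That is 1 above and 1 below of 43, against 2.23% and 2.06% of all genes with a peak. Of the 249 regions of other imprinted genes, the DOX libraries alone held 0, against 0.792% of all regions. The PBS libraries alone held 2, against 0.303%. The 2 lay near Ano1 (chr7:144577924-144578332) and Qpct (chr17:79108249-79108634). Of the ranked regions of these genes, 0 of 157 at other imprinted genes and 0 of 84 at imprint regulators passed an adjusted p of 0.05 (limma). At an unadjusted p under 0.05 in limma, 8 regions of other imprinted genes were higher in DOX and 6 lower, and 5 regions of imprint regulators were higher and 11 lower, against 7.01% higher and 6.1% lower of all regions.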

How the data were processed

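ATAC-seq peak lists of 6 libraries, 3 DOX and 3 PBS, were used; groups and replicate numbers came from the sample titles. The submitters' processing notes name MACS2 2.2.7.1, Bowtie2 2.4.5, Picard 2.10.9 and build mm10, with no role or order. Caller settings, read filters and any Tn5 shift are not stated there. The deposited lists give for each peak a fold enrichment (a ratio over background), a −log10 p, a −log10 q, a score equal to 10 times the −log10 q, and the summit as another value, all from the authors' peak caller and not scaled between libraries. They served only to rank or describe peaks within a list and to solve for the constant background, which made 100% of pileups whole to within 0.05.

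Peaks on chromosomes 1 to 19 and X were kept (13 to 19 on Y left out), and each list was cut to its strongest 65462. Overlapping peaks (1 bp or more) of all libraries were merged into regions. Genes came from RefSeq (GRCm38.p6, the assembly that mm10 displays) and starts from its promoter table. Normal scores of ranks were compared with limma 3.58.1 (trend and robust moderation, Benjamini-Hochberg over all shared regions; R 4.3.3), a fit tested on simulated data. Coordinates are 1-based. The members and lists were chosen with earlier results of these data known. Named are members with called regions or peak numbers, the 10 with the best mean rank, those without a start peak and the 5 regions with the lowest p; others were chosen after their values were seen.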

Additional observations from a re-analysis of the deposited data

How the results depend on the processing

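In all 12 alternatives 0 regions of imprinted loci passed an adjusted p of 0.05 (limma). The 5 regions with the lowest p kept their direction wherever they could be fitted. They were chosen by their p in these same data, and the groups did not overlap in any of them except that of Blcap. Leaving out a library or changing the rank scale could therefore hardly reverse them. Those of Igf2r, Slc22a2 and Blcap could not be when only the strongest 50% of each list was kept. The replicate block leaves the differences unchanged in this balanced design, so it could not alter a direction. Ranking by fold enrichment gave the same fit as the main setting, so it adds no further check. The adjusted p of the Dio3 region ranged from 0.0558 to 0.308. Libraries with the same number did not deviate together (correlations of 0.113, -0.101 and 0.0441), and not every library correlated best with its own number. With the replicate block 0 regions of imprinted loci were called, and 32 and 16 of all regions were called higher and lower in DOX, against 0 and 0; without PBS replicate 1 these were 82 and 11. The count of regions held only by DOX libraries was 7 of 270 in the deposited lists, against 2151 of 113038 over all regions. It was 0 to 3 of 182 to 193 regions with each library left out. There were 3 without DOX replicate 1 or PBS replicate 1, 2 without DOX replicate 2 and 1 without PBS replicate 2. Over all regions 955 to 1457 of 75756 to 77868 were then held so, against 623 of 78613 in the main setting. With a library left out, the rule asks for fewer libraries. The count of regions held only by PBS libraries was 2 of 219 with summits within 250 bp, against 578 of 88181 over all regions. These 2 were peaks at Peg10 and Igf2r described above as divided differently, and a wider peak overlapped each in every DOX library. With each library left out the count was 0, against 383 to 681 over all regions. Members with all DOX counts above all PBS counts numbered 5 in the deposited lists, 1 with a window of 5 kb and 0 to 2 with each library left out (2 without DOX replicate 1 or PBS replicate 2, 1 without PBS replicate 1 or 3). Members with all DOX counts below numbered 1 in the deposited lists, 0 with the strongest 50% of each list, 0 with regions counted, 1 in the gene span alone and 3 to 5 with each library left out; without PBS replicate 3 they were 5, with Usp29 and Ppp1r9a added. For these counts of members the share of all genes was not computed under the alternatives, so they have no background. At Igf2r the difference of -2.33 peaks became 1.33 in the deposited lists, where DOX libraries list more peaks. With the strongest 50% of each list 16 members were open in all libraries, since fewer peaks were kept, and 24 to 28 under the other settings. The cause of the other changes was not tested. List depth limits what a missing peak can show.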
